A study of Mus musculus with 47 samples.

Results

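E14Tg2A is a mouse embryonic stem cell (ESC) line. Here its cells were examined 96 h into an experiment with an siRNA against Tdg (siTdg) or with a control siRNA (siC). The comparison rests on 4 of the 47 samples of the series, 2 siTdg libraries and 2 siC libraries, all those labelled as RNA of ESCs at 96 h. Both groups were grown in serum-free N2B27 medium with LIF, the MEK inhibitor PD0325901 and the GSK3 inhibitor CHIR99021, conditions that hold ESCs in a naive pluripotent state. Total RNA was depleted of ribosomal RNA and sequenced. Genes were compared when their mean over the 4 libraries was at least 0.5 RPKM (reads scaled by gene length and library depth), which held for 12174 of 24507 genes. A log2 change is siTdg minus siC on the scale of log2(RPKM + 0.5), taken within pairs of libraries with the same replicate number, and this scale understates the changes of low genes. A gene is said to have risen or fallen only at an adjusted p under 0.05 by limma with Benjamini-Hochberg adjustment over all genes tested.

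Tdg encodes thymine DNA glycosylase, which removes thymine and uracil opposite guanine and excises the oxidised cytosines that TET enzymes make from 5-methylcytosine, so that base excision repair can put an unmodified cytosine back. The series' title links this enzyme to p53 across the cell cycle. In ESCs p53 is active in an unstressed culture, and its targets include genes of growth arrest, apoptosis, repair and its own feedback.

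The libraries held between 27947298 and 31316442 reads on genes, recovered from the deposited values. The labels name no separate cultures behind the 2 libraries of each group, so the p-values reflect variation among these 4 libraries that may be technical. All 14 ESC markers were at a mean of 1 RPKM or more, with a summed level of 4612 to 8411 RPKM in siTdg and 4633 to 7421 RPKM in siC. Summed levels of the 8 fibroblast markers were 1.13 to 2.19 RPKM in siTdg and 0.808 to 2.08 RPKM in siC, and those of the 5 mesoderm markers 1.37 to 3.92 RPKM in siTdg and 1.92 to 4.62 RPKM in siC. For the 8 primitive endoderm markers they were 7.19 to 26.5 RPKM in siTdg and 9.77 to 29.3 RPKM in siC, for the 8 trophoblast markers 21.4 to 23.2 RPKM in siTdg and 20.9 to 22.5 RPKM in siC, and for the 7 neural markers 44.4 to 69.0 RPKM in siTdg and 51.5 to 66.1 RPKM in siC. The 8 markers of 2-cell-like cells, a rare state in ESC cultures, summed to 1.74 to 6.55 RPKM in siTdg and 1.28 to 10.3 RPKM in siC, with Tcstv1, Tcstv3 and Gm4340 at 0.

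Replicate number separated the libraries far more than the siRNA did. Among 11380 genes with a mean of at least 50 reads, 917 differed by more than 2-fold between the siC replicates, against 1 between siTdg and siC in the replicate 1 pair and 3 in the replicate 2 pair. Across the 12174 genes the log2 difference between siTdg and siC had an SD of 0.180 in pair 1 and 0.226 in pair 2, while replicate 2 minus replicate 1 had an SD of 0.631. Same-numbered libraries deviated together from their group means, with a correlation of 0.93 across genes, which are not independent replicates. For most genes the siTdg and siC values therefore overlap, and a change is seen as a like shift within each pair. The labels do not say what a replicate number stands for.

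Tdg, the targeted gene, was measured first. It stood at 28.3 and 40.3 RPKM in siTdg replicates 1 and 2, against 35.8 and 46.0 RPKM in siC replicates 1 and 2. The siTdg library was the lower one in both pairs, and the groups overlapped. The log2 change was -0.26 (SE 0.08, adjusted p = 0.0879 by limma), which is 0.834 of the siC level on this scale and does not pass the threshold. Over the alternatives the adjusted p lay between 0.00539 and 1. At 48 h, in other libraries of the same cells, Tdg was at 7.34 and 13.2 RPKM in siTdg and 46.0 and 43.4 RPKM in siC, a log2 change of -2.12. The change at 96 h minus that at 48 h was 1.86 (SE 0.20, adjusted p = 0.00158 by limma over 12190 genes), a call that was lost without the replicate block (adjusted p = 1), with no filter on low values (0.794) and with no trend (0.29). RNA levels do not show how much TDG protein the cells held at either time.

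**Figure D1:**
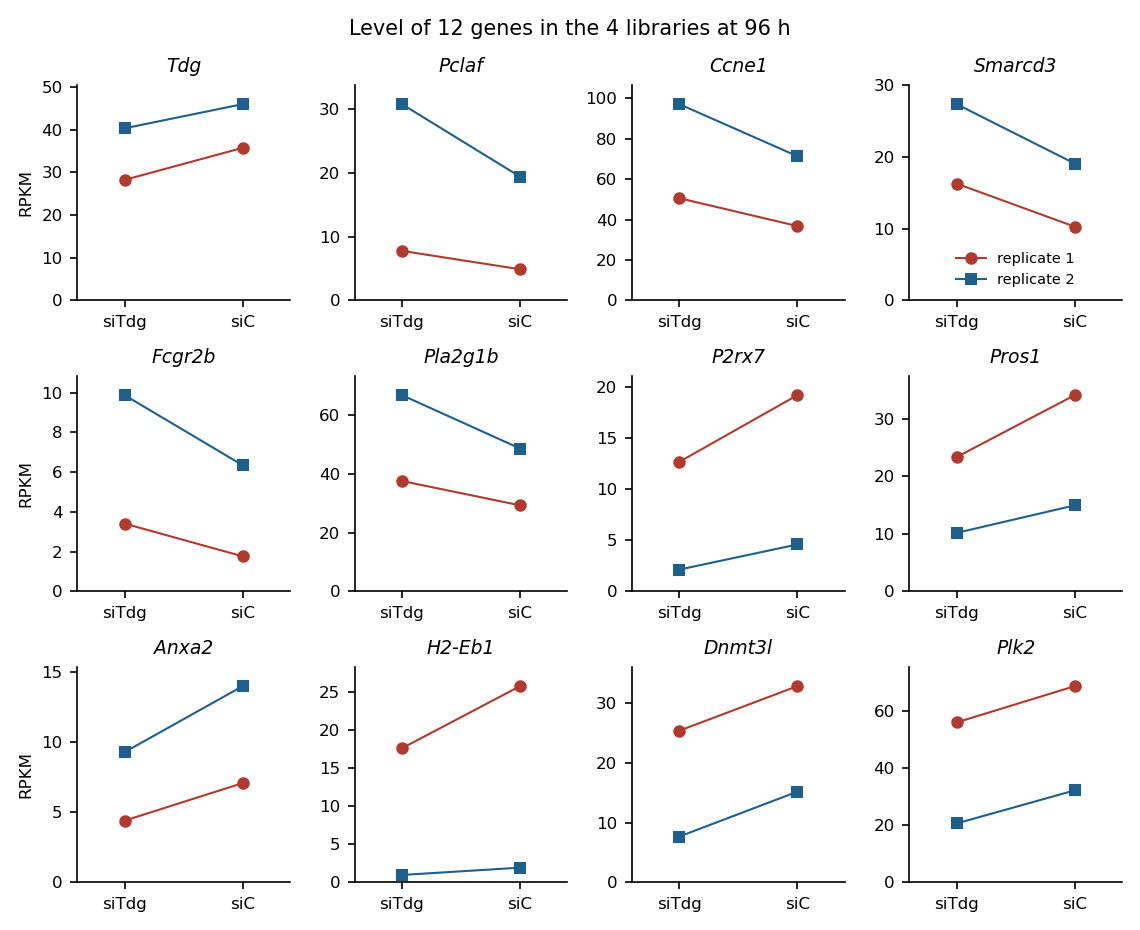
RPKM (vertical axes, from 0) of 12 genes in the siTdg and siC libraries at 96 h, with same-numbered libraries joined by a line. The lines of a gene slope the same way while the replicates lie apart: P2rx7 was at 12.7 and 2.14 RPKM in siTdg, against 19.3 and 4.61 RPKM in siC.

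Of the 12174 genes 148 were called, or 1.22%, with 64 raised (0.526%) and 84 lowered (0.69%) with siTdg. In 144 of the 148 both pairs moved the same way, as they did in 7403 of all 12174 genes. The fit favours genes whose pairs agree, so this count is no separate check of the calls. Changes were small: among the 98 called genes with at least 50 reads the median absolute log2 change was 0.423 and the largest 0.767. These calls rest on the replicate block, since limma without it called 0 genes, with 12 at an unadjusted p under 0.05. They also rest on a spread borrowed across genes, as the 4 libraries leave 1 residual degree of freedom and the fit adds 24.3 prior ones. Limma-voom on the recovered reads called 298 genes (2.45%), 98 raised and 200 lowered, and shared 91 with the 148. A model over the 8 libraries of 48 h and 96 h called 14 genes (0.115%), all among the 148. A minimum of 50 reads, added after seeing the data, gave 296 of 11380 genes (2.6%), 98 of them among the 148. Leaving out 1 library in the model over 8 libraries leaves the other pair to give the change, and this called 44 genes without a replicate 1 library and 21 without a replicate 2 library, 23 and 16 of them among the 148. Called in both cases were 2 of the 148, Scarna10 and Snord1b, on means of 4.25 and 5 reads per library.

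All 3 of these fits called 10 genes, 6 raised and 4 lowered. P2rx7, an ATP-gated ion channel, fell to 12.7 and 2.14 RPKM in siTdg replicates 1 and 2, against 19.3 and 4.61 RPKM in siC (log2 change -0.77, SE 0.10, adjusted p = 1.45e-04 by limma). Pros1, the secreted ligand protein S, fell to 23.4 and 10.2 RPKM in siTdg, against 34.2 and 15.0 RPKM in siC (-0.54, SE 0.08). Anxa2, a calcium-dependent membrane-binding annexin, was at 4.40 and 9.29 RPKM in siTdg and 7.08 and 13.99 RPKM in siC (-0.60, SE 0.10), and was higher in replicate 2, unlike P2rx7 and Pros1. H2-Eb1, a chain of MHC class II, was at 17.6 and 0.976 RPKM in siTdg and 25.7 and 1.93 RPKM in siC (-0.63, SE 0.10).

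Genes raised in all 3 fits included Pclaf and Ccne1, which belong to the list of DNA replication and G1/S genes described below. Pclaf, which encodes a factor bound to the replication clamp PCNA, rose to 7.78 and 30.8 RPKM in siTdg replicates 1 and 2, against 4.89 and 19.4 RPKM in siC (log2 change 0.64, SE 0.09, adjusted p = 1.58e-04 by limma). Ccne1, or cyclin E1, the partner of CDK2 at the start of S phase, rose to 50.6 and 97.1 RPKM in siTdg, against 36.8 and 71.4 RPKM in siC (0.45, SE 0.07, adjusted p = 7.08e-04 by limma). In both genes each siTdg library stood above its siC partner by nearly the same log2 difference, 0.62 and 0.65 for Pclaf and 0.45 and 0.44 for Ccne1. Fcgr2b, an inhibitory Fc receptor, was at 3.42 and 9.88 RPKM in siTdg and 1.77 and 6.35 RPKM in siC (0.69, SE 0.11). Pla2g1b, a secreted phospholipase A2, was at 37.5 and 66.7 RPKM in siTdg and 29.3 and 48.6 RPKM in siC (0.40, SE 0.07). The remaining raised genes were 5730408K05Rik (0.74, SE 0.10) and the small nucleolar RNA gene Snord1b (2.42, SE 0.22), which had 8 and 10 reads in siTdg and 2 and 0 reads in siC.

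Of the 6246 genes with an adjusted p in the authors' deposited table, 9 had one under 0.05, or 0.144%, and all 9 are among the 148. P2rx7, Pros1, Pclaf and Ccne1 are described above. Dnmt3l, a partner of the de novo DNA methyltransferases with no catalytic activity of its own, fell to 25.4 and 7.68 RPKM in siTdg, against 32.9 and 15.2 RPKM in siC (log2 change -0.65, SE 0.10). Plk2, a kinase of the polo family and a p53 target, fell to 56.1 and 20.7 RPKM in siTdg, against 68.9 and 32.3 RPKM in siC (-0.46, SE 0.08). Smarcd3, a subunit of SWI/SNF chromatin remodelling complexes, rose to 16.3 and 27.4 RPKM in siTdg, against 10.3 and 19.1 RPKM in siC (0.57, SE 0.08). Mrgpra6 (-0.33) and 4930470H14Rik (-0.44), both at over 100 RPKM in each library, fell as well.

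**Figure D2:**
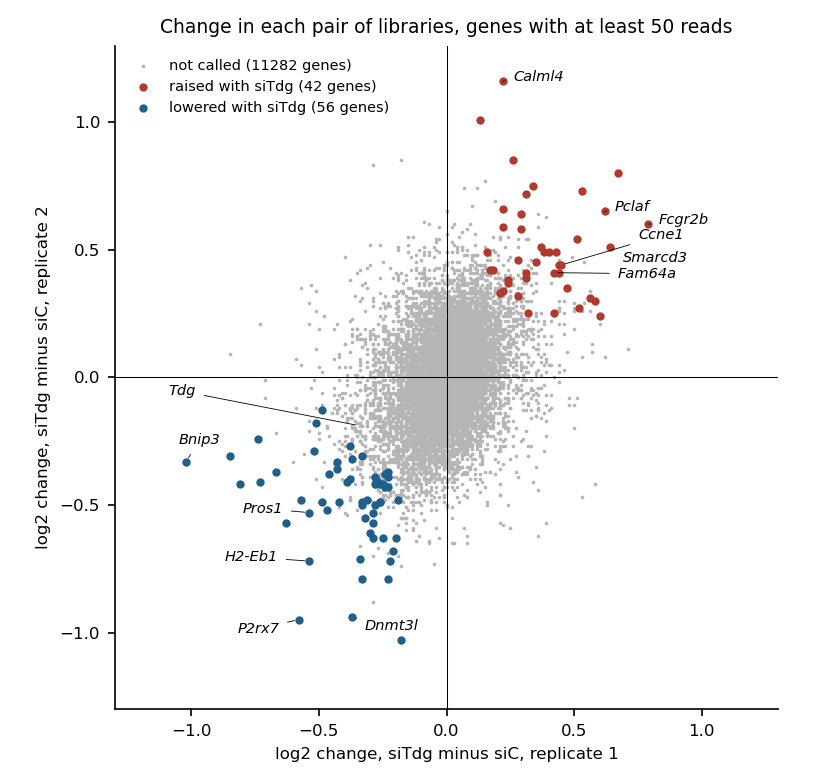
Log2 change of siTdg minus siC in the replicate 1 pair (horizontal axis) and the replicate 2 pair (vertical axis) for 11380 genes with at least 50 reads, each point a gene. The 42 raised and 56 lowered genes lie away from the centre in both directions, and Tdg lies among the genes not called.

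Outside these, the strongest changes among genes with at least 50 reads, a condition chosen after the values were seen, were of unlike kinds. Raised were Calml4, a calmodulin-like gene (log2 change 0.69), Ripply3, a transcriptional co-repressor (0.55), Pcbd1, a pterin dehydratase that also binds HNF1 (0.55), Calb2, the calcium-binding protein calretinin (0.53), Fam173a (0.52), the non-coding transcript Platr26 (0.46), Fkbp7, a chaperone of the endoplasmic reticulum (0.46), and Omd, an extracellular matrix proteoglycan (0.45). Calb2 shows their pattern, at 7.14 and 25.7 RPKM in siTdg and 4.87 and 17.5 RPKM in siC. Calml4 was uneven, with 0.22 in pair 1 and 1.16 in pair 2. Lowered were Bnip3, a hypoxia-induced mitophagy receptor (-0.68), Akr1cl, an aldo-keto reductase gene (-0.61), Fbp2, a gluconeogenic phosphatase (-0.58), Rhob, a small GTPase (-0.57), Slc5a1, the sodium-glucose cotransporter (-0.56), Pcsk1, a prohormone convertase (-0.52), and Dppa3, an oocyte and germline protein that protects DNA from demethylation (-0.51). Bnip3 was at 2.28 and 3.37 RPKM in siTdg and 5.13 and 4.38 RPKM in siC, so the groups did not overlap, and Rhob was at 6.71 and 6.34 RPKM in siTdg and 11.5 and 8.60 RPKM in siC.

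The largest log2 changes of all belonged to genes of short RNAs with few reads. MicroRNA, small nucleolar and small Cajal body RNA genes made up 39 of the 148 calls, or 28.1% of the 139 such genes tested, against 0.906% of the other 12035 genes. Their mean reads per library had a median of 5.25 and a range of 1.25 to 61.3, and 2 of the 39 were also called by limma-voom. Snord1b (2.42), Snora2b (1.77), Scarna10 (1.63), Scarna9 (1.39), Snord37 (1.34), Mir7673 (1.20), Mir8091 (1.18), Snord38a (1.16), Mir7079 (0.93) and Snord15b (0.74) were raised. Snora28 (-1.27), Snord19 (-1.25), Mir700 (-1.22), Mir6948 (-1.08), Mir3061 (-1.06), Mir7036 (-1.05), Snord49b (-0.97), Snord87 (-0.89), Mir3101 (-0.88) and Snora74a (-0.73) were lowered, with Ly6c2 (-0.70), a surface antigen gene with close copies. Scarna10 had 9 and 5 reads in siTdg and 2 and 1 reads in siC, and Snora28 had 4 and 7 reads in siTdg and 12 and 19 reads in siC. In these 2 genes the groups did not overlap, yet each value rests on a handful of reads from libraries made for long RNA.

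**Figure D3:**
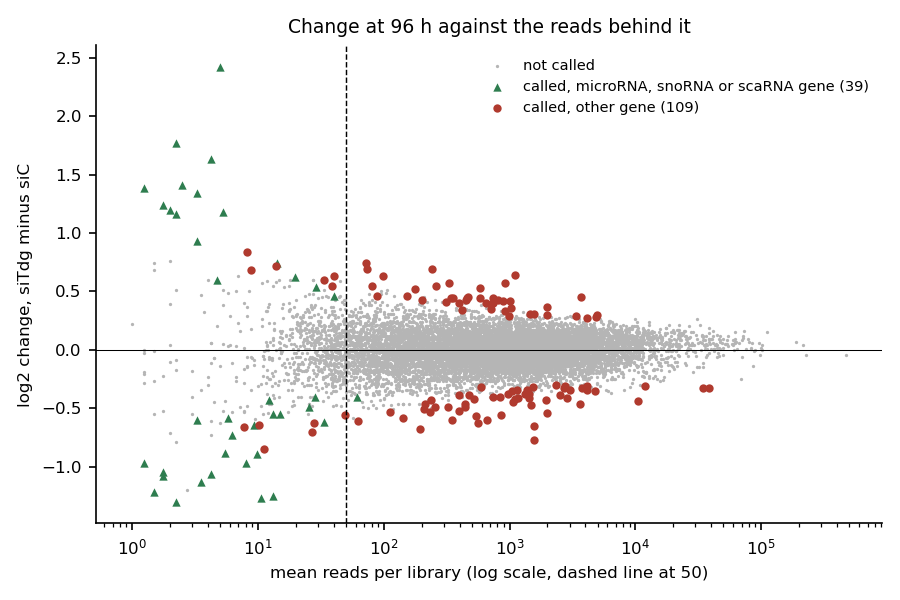
Log2 change of siTdg minus siC (vertical axis) against mean reads per library (horizontal axis, log scale) for the 12174 genes, with called short RNA genes as triangles and other called genes as circles. Changes beyond 1 on the log2 scale were seen only for genes left of the dashed line at 50 reads.

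The genes of p53 itself and of its best known targets were below the calling threshold. Trp53, the gene of p53, was at 188.9 and 121.6 RPKM in siTdg and 187.3 and 129.5 RPKM in siC (log2 change -0.04, SE 0.07). Cdkn1a, the CDK inhibitor p21, was at 108.7 and 82.0 RPKM in siTdg and 126 and 89.9 RPKM in siC (-0.17, SE 0.07, adjusted p = 0.247 by limma), a value below siC in both pairs. Mdm2, the ubiquitin ligase of p53, was at 81.2 and 69.3 RPKM in siTdg and 92.5 and 75.8 RPKM in siC (-0.16, SE 0.07), and Ccng1, cyclin G1, had a log2 change of -0.10 (SE 0.07). Other highly expressed targets that did not pass were the apoptosis genes Bax (-0.06), Siva1 (-0.04) and Aen (-0.06), the mitotic gene Gtse1 (-0.16) and Pcna (0.19).

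Among 63 p53 targets tested, from 4 lists that share some members, 2 fell and 0 rose, against 0.69% and 0.526% of all genes. Both belong to the arrest and stress list of 19, Plk2 and Ptprv, a receptor-like phosphatase gene activated by p53 in the mouse, which was at 7.95 and 2.56 RPKM in siTdg and 9.30 and 4.41 RPKM in siC (log2 change -0.45, SE 0.11). Of the 63 targets 40 were below 0 in both pairs, while 29.3% of all genes were, and 10 were above 0 in both. The median log2 change of the targets was -0.10, with -0.05 in pair 1 and -0.11 in pair 2, beside 0.00 for all genes. By role it was -0.16 for 16 apoptosis genes, of which 14 were below 0 in both pairs, -0.14 for the arrest and stress genes, -0.05 for 7 feedback genes, with 0.02 in pair 1, and -0.03 for 26 repair and metabolism genes, or -0.09 with quantile normalization. The targets also differed between replicates, with a median of -0.27 for replicate 2 minus replicate 1, and the part of this in the result was not tested. The 18 genes of p53 and its regulators had a median of -0.04 and 0 calls.

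More cell cycle genes lay above 0 than below it. Of 50 genes of DNA replication and the G1/S transition 2 rose, Pclaf and Ccne1, and 0 fell, against 0.526% and 0.69% of all genes. In both pairs 34 were above 0, while 31.5% of all genes were. Their median log2 change was 0.10, with 0.11 in pair 1 and 0.10 in pair 2. Their median for replicate 2 minus replicate 1 was 0.26, the same direction, and its part in the result was not tested. The members with the highest levels were Pcna (0.19), the helicase subunits Mcm3 (-0.01) and Mcm7 (0.04), and the histone chaperone Nasp (0.15). With quantile normalization Mcm3 had -0.07 and Mcm7 -0.03. Of 63 genes of mitosis and G2/M 1 rose and 0 fell, against 0.526% and 0.69% of all genes. In both pairs 38 were above 0, and the median was 0.08, with 0.12 in pair 1 and 0.05 in pair 2. Their median for replicate 2 minus replicate 1 was 0.18, also the same direction and not tested for its part. Fam64a, a mitotic regulator, rose to 11.2 and 42.7 RPKM in siTdg, against 8.22 and 31.9 RPKM in siC (0.42, SE 0.08). Ccnb1, cyclin B1, had 0.10, the ubiquitin-conjugating enzymes Ube2c and Ube2s of the anaphase-promoting complex 0.14 and 0.09, and the import receptor Kpna2 0.07, a sign that turned with quantile normalization (-0.01). The 18 cyclins had a median of 0.04 with Ccne1 as their 1 call, the 22 CDKs and inhibitors 0.03 with 0 calls, and the 27 Fanconi and homologous recombination genes 0.05 with 0 calls. Of 37 replication-dependent histone genes Hist1h3b fell (-0.66), on 5 and 4 reads in siTdg and 9 and 13 reads in siC, and histone genes have near-identical copies between which reads can be split. These are bulk libraries, in which fewer cells of a kind and less RNA per cell cannot be told apart.

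Genes of cholesterol synthesis had the highest median of the lists, 0.17, with 0.10 in pair 1 and 0.27 in pair 2. This list, like the p53, cell cycle and other lists, was chosen with earlier results of these data known. Its rank and the counts of members are therefore descriptive. Of 24 members 2 rose and 0 fell, against 0.526% and 0.69% of all genes, and 19 were above 0 in both pairs, while 31.5% of all genes were. Idi1, the isopentenyl diphosphate isomerase of the mevalonate pathway, rose to 34.4 and 97.2 RPKM in siTdg, against 30.2 and 72.5 RPKM in siC (log2 change 0.30, SE 0.08). Insig1, which retains the sterol sensor in the endoplasmic reticulum, rose to 50.4 and 87.3 RPKM in siTdg, against 43.1 and 68.8 RPKM in siC (0.28, SE 0.07). Fdps (0.25), Msmo1 (0.26) and Acat2 (0.18), enzymes at other steps, did not pass. Limma-voom called 7 of the 24 as raised, beside 6 of the 50 replication and G1/S genes and 98 of all 12174 genes. The list also had a median of 0.72 for replicate 2 minus replicate 1, the same direction, and its part in the result was not tested.

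Promoters of 3 called members of the G1/S and cholesterol lists follow, to show the sequence around the start of genes that rose. Windows run from 250 bases before to 50 bases after the annotated start in RefSeq on GRCm38.p6, 5′ to 3′ on the gene's strand. In Pclaf (chr9:65890073-65890372, + strand) the capitals mark a match to TTTNNCGC, a core of E2F sites, on the opposite strand and starting 5 bases before the gene's start. This motif was found on either strand of 5.17% of 32851 promoters of this length. It was in 18 of the 38 promoters found for the 50 replication and G1/S genes (47.4%), most of which were not called. Of the 53 promoters found for the mitosis and G2/M genes 7 held it, and of the 16 found for the cholesterol genes 0. In Idi1 (chr13:8885356-8885655, + strand) and Insig1 (chr5:28071162-28071461, + strand) the capitals mark CCAAT, the core of NF-Y sites, in 2 places and in 1 place on the opposite strand, where it reads as its complement. CCAAT was found in 37.4% of the promoters, and the Pclaf window holds 2 such matches as well, not capitalised. It was in 14 of the 16 cholesterol, 24 of the 38 replication and G1/S and 40 of the 53 mitosis and G2/M promoters. TCACNCCAC, a form of the sterol regulatory element that 1.24% of promoters hold on either strand, was searched too. It was in neither the Idi1 nor the Insig1 window and in 0 of 16 promoters found for the 24 cholesterol genes, too few of the list for a share of it. TTTGAA, a motif of G2/M genes that 17.9% of promoters hold, was in none of the windows shown and in 37 of the 53 promoters found for the 63 mitosis and G2/M genes (69.8%). The window of Ccne1 held no match to TTTNNCGC. A match is a run of letters, not a binding site.
Pclaf: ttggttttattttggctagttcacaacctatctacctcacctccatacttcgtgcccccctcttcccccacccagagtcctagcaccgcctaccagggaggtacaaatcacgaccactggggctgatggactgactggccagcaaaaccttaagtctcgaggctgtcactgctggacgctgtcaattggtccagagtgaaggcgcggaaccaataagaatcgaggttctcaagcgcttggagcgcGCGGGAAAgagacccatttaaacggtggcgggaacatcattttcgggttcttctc
Idi1: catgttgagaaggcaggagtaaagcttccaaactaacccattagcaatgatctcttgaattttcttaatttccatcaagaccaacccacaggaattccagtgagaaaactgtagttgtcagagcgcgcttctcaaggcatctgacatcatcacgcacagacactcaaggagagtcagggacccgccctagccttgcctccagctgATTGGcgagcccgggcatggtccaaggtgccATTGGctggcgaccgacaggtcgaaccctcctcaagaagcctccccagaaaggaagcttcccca
Insig1: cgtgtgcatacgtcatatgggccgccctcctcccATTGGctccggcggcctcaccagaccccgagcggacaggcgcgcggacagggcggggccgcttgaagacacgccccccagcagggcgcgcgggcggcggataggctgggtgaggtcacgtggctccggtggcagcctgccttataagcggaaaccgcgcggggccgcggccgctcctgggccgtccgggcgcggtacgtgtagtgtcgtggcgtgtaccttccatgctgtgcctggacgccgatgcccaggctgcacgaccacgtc

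Of 16 genes of DNA methylation Dnmt3l fell and the others did not pass, with a median log2 change of -0.06, where 1.22% of all genes were called. The 16 genes around TDG and the TET enzymes had a median of 0.06 and 0 calls, and the 15 base excision repair genes downstream 0.08 and 0 calls. Of 24 germline genes that promoter methylation silences in most tissues, Fkbp6, a meiotic chaperone, fell to 30.2 and 17.2 RPKM in siTdg, against 36.7 and 22.8 RPKM in siC (-0.34, SE 0.08), and the list's median was 0.07. Of 23 imprinted genes Peg10, a retrotransposon-derived gene of the placenta, fell to 4.54 and 7.71 RPKM in siTdg, against 5.39 and 13.0 RPKM in siC (-0.47, SE 0.11), with 12 members below 0 in both pairs (29.3% of all genes) and a median of -0.09. Peg10 was also the 1 call among 9 trophoblast genes.

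Core pluripotency genes had a median near 0, and the medians of several lists of early development were below it. Pou5f1 (log2 change -0.01), Nanog (0.07), Dppa5a (0.15) and Tdgf1 (0.15) were the highest of 16 core genes, with 0 calls and a median of 0.02. Among 29 naive pluripotency genes Dppa3 fell, at 10.5 and 4.27 RPKM in siTdg against 12.4 and 7.76 RPKM in siC, which 0.69% of all genes did, and 19 members were below 0 in both pairs (29.3% of all genes), with a median of -0.09 and of -0.29 for replicate 2 minus replicate 1. The 17 formative and primed genes had a median of -0.10 with Dnmt3l as their 1 call, and the 14 endoderm genes -0.13 with 0 calls. Of 13 Wnt response genes 9 were below 0 in both pairs (29.3% of all genes) and the median was -0.23, with -0.09 in pair 1 and -0.27 in pair 2. Their median for replicate 2 minus replicate 1 was -0.84, the same direction, and its part in the result was not tested. Sp5, a transcription factor induced by Wnt, fell to 7.21 and 3.91 RPKM in siTdg, against 9.88 and 5.15 RPKM in siC (-0.39, SE 0.10). Both groups received the GSK3 inhibitor, which activates this pathway.

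Among 9 primitive streak genes Sp5 fell and Lefty2, a secreted inhibitor of Nodal, rose to 14.9 and 17.0 RPKM in siTdg, against 11.9 and 12.7 RPKM in siC (log2 change 0.36, SE 0.09), with no overlap of the groups. The 13 genes of the 2-cell-like state had a median of -0.29 that differed between pairs, -0.05 in pair 1 and -0.47 in pair 2, with 0 calls by limma and 3 lowered by limma-voom, a median of 1.07 for replicate 2 minus replicate 1, and close copies of many members. The 5 neural genes had a median of -0.07 and 0 calls, and of the 6 fibroblast genes Fn1, the matrix protein fibronectin, fell to 207.8 and 49.8 RPKM in siTdg, against 236.5 and 69.7 RPKM in siC (-0.33, SE 0.07).

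**Figure D4:**
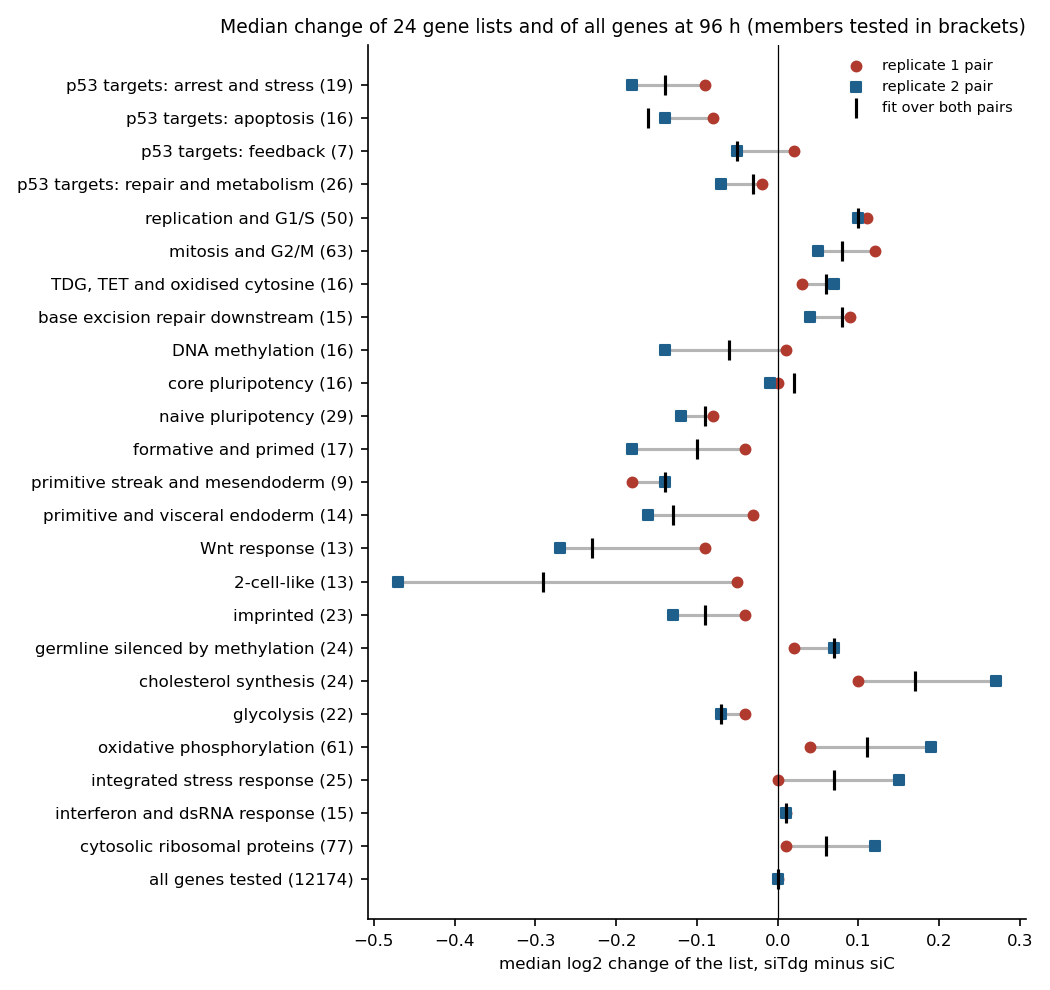
Median log2 change of siTdg minus siC (horizontal axis) for 24 gene lists and for all genes, with a circle for the replicate 1 pair, a square for the replicate 2 pair and a bar for the fit over both. The 3 sets of p53 targets with medians below 0 in both pairs lie left of 0, the G1/S, G2/M and cholesterol lists right of it, and the 2-cell-like list has pairs far apart at -0.05 and -0.47.

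Lists of metabolism, stress and translation are read against 1.22% of all genes called, 31.5% above 0 in both pairs and 29.3% below 0 in both pairs. In hypoxia response Bnip3 was the 1 call of 16, with a median log2 change of -0.06. The 22 glycolysis genes had a median of -0.07, with 12 below 0 in both pairs, and the 14 fatty acid synthesis genes 0.00. The 61 oxidative phosphorylation genes had a median of 0.11, with 45 above 0 in both pairs, and the 77 cytosolic ribosomal protein genes 0.06, with 43 above 0 in both pairs. Neither held a call by limma or limma-voom, and with quantile normalization their medians were 0.04 and 0.00. Their medians for replicate 2 minus replicate 1 were 0.68 and 0.62, the same direction, and the part of this in the result was not tested. Of 15 interferon response genes Bst2, an antiviral membrane protein, rose to 17.4 and 57.1 RPKM in siTdg, against 11.5 and 46.4 RPKM in siC (0.44, SE 0.08), and B2m, the light chain of MHC class I, fell to 18.4 and 23.7 RPKM in siTdg, against 23.3 and 29.6 RPKM in siC (-0.32, SE 0.08), so the list has calls in both directions and a median of 0.01. With 0 calls each by limma, 25 integrated stress response genes had a median of 0.07, 21 unfolded protein and heat shock genes 0.06, 18 small nucleolar RNA host genes 0.07, 12 RNAi genes -0.05 and 14 MAPK feedback genes -0.11.

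A count of 0 calls in a list is by limma throughout. Limma-voom called 3 integrated stress response genes as raised. As lowered it called 3 endoderm, 3 2-cell-like, 2 glycolysis, 1 fatty acid, 1 RNAi and 1 TDG and TET gene. It called 0 in the other lists with 0 calls, and 98 raised and 200 lowered of all 12174 genes. At an unadjusted p under 0.05 by limma stood 1726 of all 12174 genes. In these lists it was 20 of 61 oxidative phosphorylation, 9 of 25 integrated stress response and 8 of 13 2-cell-like genes. It was also 6 of 16 p53 apoptosis, 7 of 26 p53 repair and metabolism, 5 of 77 ribosomal protein and 5 of 27 Fanconi genes. Each of the other such lists held 0 to 4.

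The changes at 96 h were set beside those at 48 h, which come from other libraries. The times share the replicate difference in part: replicate 2 minus replicate 1 correlated across genes at 0.623 between 96 h and 48 h. The log2 change at 96 h correlated at 0.228 with that difference at 48 h, and at 0.304 with the log2 change at 48 h. What part the replicate difference has in the shared signs and calls below was not tested. Of 144 called genes with a value at 48 h, 122 had the same sign there, while 63.6% of all genes did. At 48 h 278 genes were called, by a model over the 8 libraries of both times fitted to 12190 genes. That model called 14 genes at 96 h, so its calls are not on the same footing as the 148 from 4 libraries. Called at both times in the same direction were 18 genes, which is 12.2% of the 96 h calls and 6.48% of the 48 h calls. Among them are Pros1 (-0.54 at 96 h and -0.41 at 48 h), Ccne1 (0.45 and 0.30), Dppa3 (-0.51 and -0.69), Fn1 (-0.33 and -0.38) and Bst2 (0.44 and 0.38). Tested directly, the change at 96 h minus that at 48 h was called for 14 of 12190 genes (0.115%), 9 upward and 5 downward, and for 0 without the replicate block, with 15 at an unadjusted p under 0.05. Lefty2 was among them, with 0.36 at 96 h and -0.52 at 48 h.

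**Figure D5:**
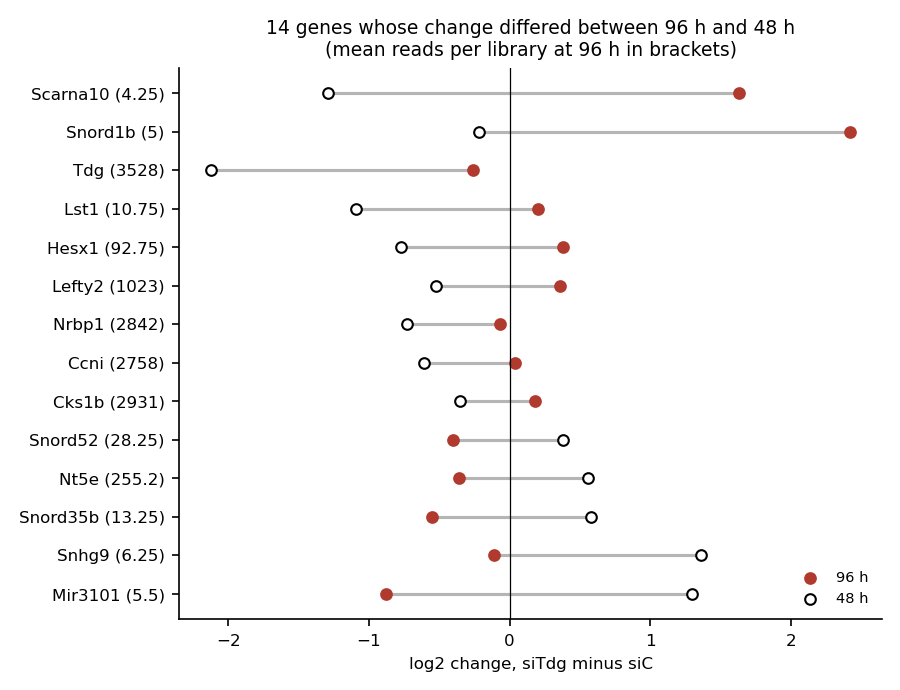
Log2 change of siTdg minus siC (horizontal axis) at 96 h, as filled circles, and at 48 h, as open circles, for the 14 genes whose change differed between the times. Tdg was at -0.26 at 96 h and -2.12 at 48 h, and 7 of the 14 genes had fewer than 50 reads per library at 96 h.

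Direction also followed the replicates. Of the 148 called genes 111 had a log2 change with the sign of replicate 2 minus replicate 1, as did 71.3% of all genes. Pclaf, for example, was 1.90 higher on the log2 scale in replicate 2 than in replicate 1 and P2rx7 2.14 lower. Gene length was not part of the fit. The median of replicate 2 minus replicate 1 was 0.68 for oxidative phosphorylation genes, such as Atp5k with 292 bases. For RNAi genes it was -0.73, with Tnrc6c at 8726 bases, though lengths vary within a list and Prkra has 1554 bases. Whether gene length, or whatever else separates the replicates, has a part in these calls was not tested.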

How the data were processed

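Ribosome-depleted, stranded total RNA of the 4 ESC libraries at 96 h, and of 4 at 48 h, was used. The authors deposited RPKM values, 1 table for each time, each scaled on its own, and tables of their own comparison, with log2 fold changes, p-values and mean normalised signal per gene under the column names of DESeq2, per the file headers. In the 96 h comparison table the deposited fold changes use decimal commas and run siC minus siTdg, and they are turned here; 17 gene names there had become dates. The submitters' processing notes name TopHat, Bowtie, DESeq2, DiffBind and mm9. For the gene annotation and the counting tool no name was given in those notes. Other deposited files were not used.

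No gene lengths were given, so relative length was taken as the deposited mean normalised signal over the mean RPKM of a gene. The size of 1 read was then fitted in each library to the same values. RPKM times this length, in units of 1 read, gave whole reads for 100.0% of values within 0.01 reads. The counts of no 2 libraries agreed within sampling noise, the lowest chi-square per degree of freedom being 4.87, between siTdg and siC replicate 1. Groups came from sample titles. Limma 3.58.1 in R 4.3.3 (eBayes with trend, two-sided) was run, with replicate number as a block, on log2(RPKM + 0.5) where a gene's mean reached 0.5 RPKM, because the comparison is defined by replicate number and the deposited tables are named as paired. The fit was tested on simulated data. Same-numbered libraries correlated at 0.93, but 2 pairs are too few to settle whether the numbers pair the samples, so the result without the block stands beside the main one.

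Of 988 entries in 38 gene lists 982 matched by symbol and 4 by a RefSeq synonym, and 847 were tested. Members and lists were chosen with earlier results of these data known. Named are Tdg, Trp53, Cdkn1a, Mdm2 and Ccng1, the 12 most raised and 12 most lowered called genes that reach 1 RPKM in the group with more, the same direction in both pairs and no clone symbol, genes of the authors' table, called list members and, for the p53 target, G1/S, G2/M, cholesterol and core pluripotency lists, the members with the highest levels. Values of 1 list member with a high level are not reported here. The same rule among genes with at least 50 reads, and genes called in 3 fits, were added after values were seen.

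Alternatives were pseudocounts of 0.1 and 1, other filters, scalings and trends, no replicate block, limma-voom, a model over 8 libraries, leaving out each library and, added after seeing the data, a minimum of 50 reads.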

Additional observations from a re-analysis of the deposited data

Results flagged for a closer look

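For 14 genes the test of the difference itself found the change with siTdg at 96 h to differ from that at 48 h. Tdg had a difference of 1.86, from a log2 change of -0.26 at 96 h and -2.12 at 48 h. Other genes with over 50 reads per library at 96 h were Lefty2 (difference 0.88), Nrbp1 (0.66), with -0.07 at 96 h and -0.73 at 48 h, Ccni, cyclin I (0.65), with 0.04 at 96 h and -0.61 at 48 h, Cks1b, a CDK-binding subunit (0.53), with 0.18 at 96 h and -0.35 at 48 h, Hesx1, a homeobox repressor (1.15), with 0.38 at 96 h and -0.77 at 48 h, and Nt5e, a cell surface nucleotidase (-0.91), with -0.36 at 96 h and 0.56 at 48 h.

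The other genes had 4.25 to 28.3 mean reads per library at 96 h. Their differences were 2.92 for Scarna10, 2.64 for Snord1b, 1.29 for Lst1, -0.78 for Snord52, -1.13 for Snord35b, -1.47 for Snhg9 and -2.19 for Mir3101. The tables of the 2 times were scaled separately, and each change was taken within its own table.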

How the results depend on the processing

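The 148 calls at 96 h became 0 with no replicate block (12 at an unadjusted p under 0.05), 0 of 18798 with no filter on low values (1336 at an unadjusted p under 0.05), 6 with no trend, 14 in the model over 8 libraries, 291 at a mean of at least 1 RPKM, 296 at 50 reads, 298 by limma-voom, 387 with libraries centred on their median and 463 with quantile normalization. In that 8-library model, where the base is 14, leaving out a library gave 21 to 44. The share of raised genes among the calls was 43.2%, against 32.9% by limma-voom, 51.2% after centring, 57.1% over 8 libraries and 47.6% to 56.8% without a library. The 14 calls of the difference between times became 0 with no replicate block, 0 with no filter (1207 at an unadjusted p under 0.05), 1 with no trend, 3 with quantile normalization, 7 with a pseudocount of 0.1 or with centring, 24 at 1 RPKM, 47 at 50 reads, 78 by limma-voom and 16 to 128 without a library. The change of Tdg at 96 h passed at 1 RPKM (-0.26, adjusted p = 0.0477 by limma), with quantile normalization (-0.29, 0.00539), centring (-0.26, 0.0382), 50 reads (-0.26, 0.0319) and limma-voom (-0.27, 0.0276). Its difference of 1.86 between times was not called with no replicate block (adjusted p = 1), no filter (0.794) or no trend (0.29). The p53 target median lay between -0.05 and -0.11 without a library. The other scalings kept the signs of uncalled genes except Kpna2 (-0.01) and Mcm7 (-0.03) with quantile normalization. Without a library the ranges were -0.01 to 0.09 for Mcm7, -0.07 to 0.06 for Mcm3, -0.01 to 0.15 for Nanog, -0.04 to 0.02 for Pou5f1 and -0.09 to 0.01 for Trp53. The 62 called genes named in the text kept their direction in 903 checks and their call in 461. The main naming rule asks for the same direction in both pairs, and the checks reuse the same 96 h libraries. A kept direction was therefore largely fixed in advance. The cause of these shifts was not tested. With 2 pairs the spread per gene rests on 1 residual degree of freedom, and genes with few reads are limited by counting error.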
